A study of Homo sapiens with 4 samples.

Results

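The genes described here encode receptor systems through which a cancer cell can signal to ERK and AKT beside FGFR and RET: the receptor MET and its ligand HGF, the TAM receptors AXL, TYRO3 and MERTK with the ligand GAS6, the insulin-like growth factor and insulin receptors IGF1R and INSR, and the docking proteins IRS1 and IRS2. They were picked by gene name, with earlier results of these data known but no measured value in the rule, and are 10 of the 20372 genes in the count table. Transcripts were counted by RNA-seq in TPC1, a papillary thyroid cancer line with a CCDC6-RET fusion, grown in DMEM with 10% FBS and exposed to BGJ398, an FGFR inhibitor, for 24 h (2 libraries) or for 6 h (2 libraries). The labels and the methods of the study give the dose in different units, so no dose is stated. All 4 libraries came from 1 cell line under the same inhibitor and no untreated library was analysed here, so each difference is between a later and an earlier time of exposure. The question is how the transcripts of these receptor systems stood at 24 h against 6 h of FGFR inhibition.

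MET is the receptor tyrosine kinase for hepatocyte growth factor, HGF, which is usually made by stromal cells and acts on epithelial neighbours. The TAM receptors bind GAS6 and protein S (PROS1), ligands that bridge the receptor to phosphatidylserine on membranes, and AXL is known for its part in resistance to kinase inhibitors in several cancers. IGF1R and INSR bind IGF1, IGF2 and insulin, and they pass the signal through IRS1 and IRS2 to PI3K and AKT, while FOXO factors, held outside the nucleus when AKT is active, are known to drive INSR and IRS2 transcription when AKT is low.

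MET, IGF1R, INSR, IRS1 and IRS2 were at lower values at 24 h than at 6 h, by 0.29 to 0.56 on the log2 scale, whereas AXL, GAS6 and MERTK were close to equal at both times and HGF had no read. None of these differences passed the main test, the quasi-likelihood test of edgeR with Benjamini-Hochberg adjustment over all genes, by which 0 of 12549 genes (0%) were called and no adjusted p was below 0.173. At an unadjusted p under 0.05 there were 3061 genes, and DESeq2 called 610 genes. Of the 10 genes, 9 passed the filter on low counts, 8 with a negative and 1 with a positive fold change, and their median log2 fold change was -0.29, against 0.000185 over all genes tested. In 6 of these 9 both 24 h libraries lay below both 6 h libraries, as they did in 31.5% of all genes tested, and in 0 of 9 they lay above, as in 31.3% of all genes. An unadjusted p under 0.05 was found for 3 of the 9 with lower values, against 10.5% of all genes, and for 0 with higher values, against 13.9%. DESeq2 gave an adjusted p to 6 of the 10 genes and called 0 of them, against 2.65% of its genes called lower and 5.59% called higher.

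**Figure D1:**
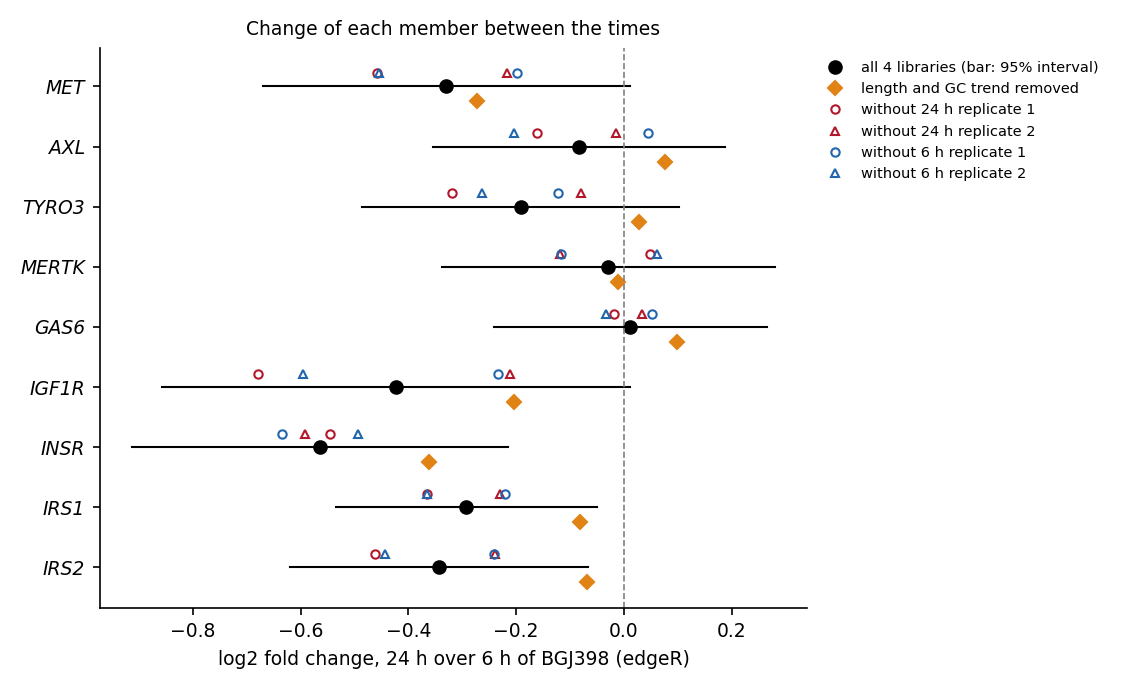
Log2 fold change of each of the 9 tested genes, 24 h over 6 h, from the edgeR fit, as a black point with its 95% interval, with open symbols for the fits without 1 library and orange diamonds for the fit with the trend on length and GC removed. INSR lies farthest below 0 at -0.56 and GAS6 sits at 0.012, and the intervals of INSR, IRS1 and IRS2 do not reach 0.

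The plot of fold changes by gene shows the order of these estimates and how wide their intervals are with 2 libraries a time. Calls turned on single libraries. Without 24 h replicate 1, edgeR called MET (adjusted p = 0.0303), IGF1R (adjusted p = 0.0139), IRS1 (adjusted p = 0.0402) and IRS2 (adjusted p = 0.0178), and DESeq2 called MET (adjusted p = 0.0227). All were lower at 24 h, as were 10.7% of all genes by edgeR and 6.83% by DESeq2 in the fits without that library. Without 6 h replicate 2, edgeR called IGF1R (adjusted p = 0.0433), with 2.63% of all genes called lower. Leaving out 24 h replicate 2 or 6 h replicate 1 gave 0 calls among the 10 genes with either tool. Nothing in the labels says that the replicates came from separate cultures, so the p-values rest on the spread between these libraries alone, and that spread may be technical.

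Library totals were 25089167 and 24958447 reads counted at 24 h, against 25212226 and 26325512 at 6 h, and levels are CPM, counts divided by the TMM-scaled library total in units of 1e6. Mitochondrial-encoded genes took 1.68% and 2.98% of counts at 24 h and 1.09% and 1.40% at 6 h. Longer transcripts stood lower at 24 h, with a Spearman correlation of -0.31 between fold change and transcript length across genes, and the difference between replicate 2 and replicate 1 had one of -0.24. Of the 9 tested genes, 8 have a transcript longer than the median of 3374 bases. With a trend on length and GC content removed, the median of the 9 genes was -0.069, against -0.29 without that step. The part of this trend in the result was not tested. Of 8 thyroid markers 4 were over 1 CPM, with a summed level of 998 to 1050 CPM at 24 h and 1108 to 1111 CPM at 6 h. Most of that sum was PAX8, at 957 and 1012 CPM at 24 h and 1066 and 1069 CPM at 6 h. TSHR and NKX2-1 were at 0 in all 4 libraries. The 6 epithelial markers summed to 141 to 166 CPM at 24 h and 166 to 168 CPM at 6 h. The leukocyte markers summed to 166 to 202 CPM at 24 h and 211 to 237 CPM at 6 h, but CD68, a lysosomal protein gene, was the 1 marker over 1 CPM, and CD3E was at 0. The 3 fibroblast markers summed to 6.50 to 6.83 CPM at 24 h and 6.01 to 7.63 CPM at 6 h. Of these, 2 were over 1 CPM and DCN was at 0. The 2 endothelial markers measured summed to at most 0.198 CPM at 24 h and 0.0816 CPM at 6 h. In bulk RNA, fewer cells with a transcript and less of it per cell cannot be told apart.

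Because the genes differed so widely in level, the sequences just before the start sites of 4 of them are shown: MET, the highest, HGF, which had no read, and INSR and IRS2, known targets of FOXO factors. Each is 250 bases from RefSeq on GRCh38.p14, read 5′ to 3′ on the strand of the gene, with the matches to the motifs searched in capitals. MET is at chr7:116671946-116672195 on the plus strand, HGF at chr7:81770048-81770297, INSR at chr19:7294415-7294664 and IRS2 at chr13:109786584-109786833, all on the minus strand.
MET: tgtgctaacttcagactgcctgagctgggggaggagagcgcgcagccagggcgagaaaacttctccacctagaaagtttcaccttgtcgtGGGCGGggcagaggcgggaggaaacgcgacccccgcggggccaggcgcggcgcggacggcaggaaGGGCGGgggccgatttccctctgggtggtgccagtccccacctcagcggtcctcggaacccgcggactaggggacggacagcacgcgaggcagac
HGF: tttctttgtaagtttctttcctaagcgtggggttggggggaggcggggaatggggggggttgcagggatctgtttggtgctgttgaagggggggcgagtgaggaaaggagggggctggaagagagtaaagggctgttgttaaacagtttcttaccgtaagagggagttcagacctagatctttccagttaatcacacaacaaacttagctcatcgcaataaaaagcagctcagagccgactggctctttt
INSR: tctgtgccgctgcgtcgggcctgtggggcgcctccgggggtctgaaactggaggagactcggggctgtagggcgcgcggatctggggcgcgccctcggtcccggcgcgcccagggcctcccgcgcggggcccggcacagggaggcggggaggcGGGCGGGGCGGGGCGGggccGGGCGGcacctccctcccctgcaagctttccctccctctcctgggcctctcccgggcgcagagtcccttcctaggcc
IRS2: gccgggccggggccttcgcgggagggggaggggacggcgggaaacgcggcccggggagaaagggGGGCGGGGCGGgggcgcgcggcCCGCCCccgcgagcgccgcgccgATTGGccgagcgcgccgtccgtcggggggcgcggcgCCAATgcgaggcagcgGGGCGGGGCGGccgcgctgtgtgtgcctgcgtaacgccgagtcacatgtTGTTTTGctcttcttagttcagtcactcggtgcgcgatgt

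In these windows the GC box GGGCGG, on either strand, matched 2 times for MET, 4 times for INSR and 5 times for IRS2, and had no match for HGF. It was found in at least 1 window of each of the 9 genes with reads, or in 9 of the 12 windows that the 10 genes have, against 42.6% of all 35116 RefSeq windows of this length. The CCAAT box, CCAAT, matched 2 times in the IRS2 window and in no other, against 32% of all windows. CAAAACA, the core of the insulin response element, matched 1 time, also in the IRS2 window, against 4.3% of all windows. The forkhead site GTAAACA was in none of the 12 windows and in 2.98% of all windows. The same held for the E-box CACGTG (6.34% of all windows), the AP-1 site TGACTCA (4.2%), the cyclic AMP response element TGACGTCA (1.65%) and the TATA box TATAAA (10.7%). Motifs were searched on both strands, and no match says only that these letters are not in the window. The GC content was 68.4% for MET, 50% for HGF, 78.4% for INSR and 76.4% for IRS2, with a median of 58% over all windows. The ratio of observed to expected CpG was 0.836, 0.447, 0.732 and 1.21 in the same order, against a median of 0.558.

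MET (ENSG00000105976, hg19 chromosome 7, 116312444 to 116438440) was the most abundant receptor of the set by far. It was at 847 and 720 CPM at 24 h and at 1072 and 898 CPM at 6 h. Both 24 h libraries were below both 6 h libraries, but the gap between the nearest libraries of the times was smaller than that between the replicates of either time. The means were 784 ± 90.0 CPM at 24 h and 985 ± 123 CPM at 6 h (n = 2, SD), a log2 fold change of -0.33 ± 0.15 (SE) with a 95% interval of -0.67 to 0.010. Neither edgeR (adjusted p = 0.213) nor DESeq2 (adjusted p = 0.0968) called it. Counting error was small beside the spread of replicates: the Poisson interval of 24 h replicate 1 was 836 to 859 CPM and that of 6 h replicate 1 was 1059 to 1085 CPM (95%, counting error only). The value ran from -0.46 without 24 h replicate 1 to -0.20 without 6 h replicate 1, and was -0.27 with the trend on length and GC removed.

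Reads of MET made up 0.0852% and 0.0718% of all counts at 24 h and 0.104% and 0.0919% at 6 h. Levels of different genes were compared as CPM per kilobase of transcript, the CPM divided by the length of the canonical transcript, which is 6822 bases for MET. On this scale MET averaged 130 CPM per kilobase over the 4 libraries and stood above 95.7% of all genes tested. It was first among 58 receptor tyrosine kinase genes, of which 7 had no read and 35 passed the filter. The next were EPHA2, an ephrin receptor, at 45.0 CPM per kilobase, PTK7 at 35.8, RYK at 30.0, AXL at 21.2 and FGFR1, a target of the inhibitor, at 20.8. ERBB2 (12.2), DDR1, a collagen receptor (10.1), RET (9.63) and EPHB4 (8.22) completed the first 10 on the same scale. RET was divided by its full canonical transcript of 5617 bases. TPC1 carries a CCDC6-RET fusion, and the part of RET in the fusion transcript was not taken into account. The level and rank of RET per length are therefore uncertain. MET alone held 34.3% and 33.2% of the summed CPM per kilobase of all 58 receptor genes at 24 h and 36.2% and 34.4% at 6 h. The ratio of MET to EPHA2, both per length, was 2.80 and 2.74 at 24 h and 3.10 and 2.83 at 6 h, so MET came first in every library.

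**Figure D2:**
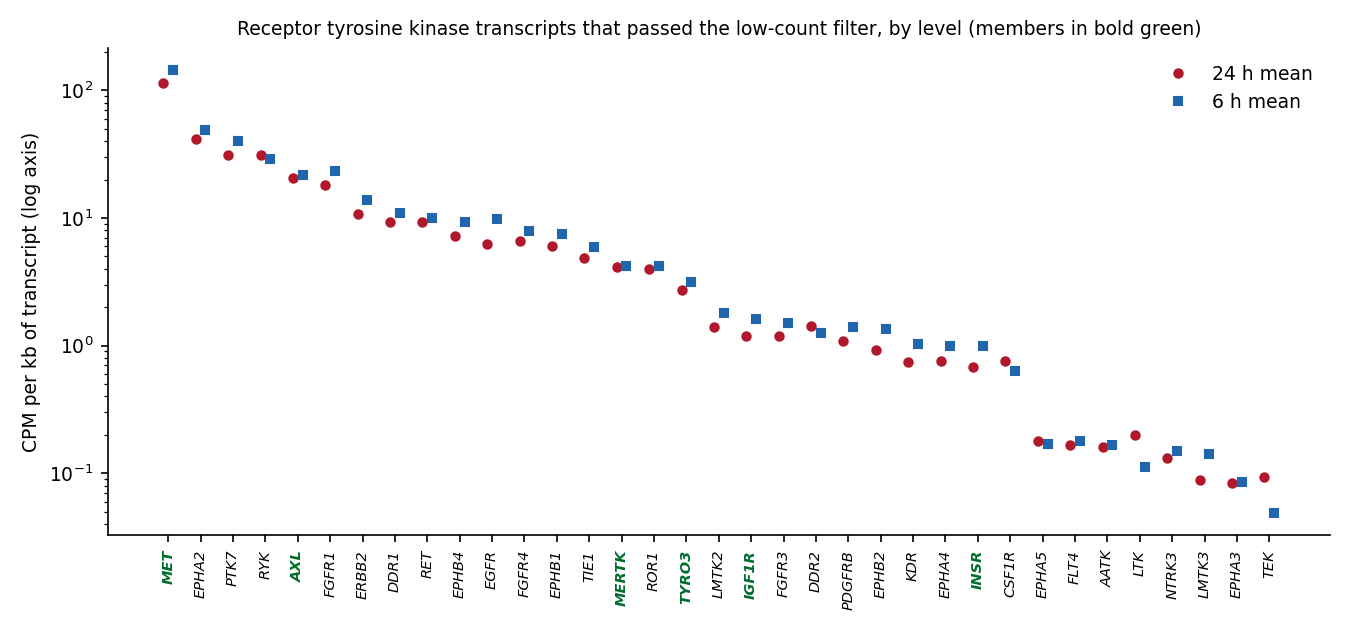
CPM per kilobase of transcript, on a log axis, of the 35 receptor tyrosine kinase genes that passed the filter, as the mean of the 24 h libraries (circles) and of the 6 h libraries (squares). MET comes first with a mean of 130 CPM per kilobase over both times and AXL follows as the fifth with 21.2, while MERTK, TYRO3, IGF1R and INSR lie lower.

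Most receptor genes had lower values at 24 h, as MET did. Of the 35 that passed the filter, 29 had a negative and 6 a positive fold change, with a median of -0.27 on the log2 scale. It was -0.13 with the trend on length and GC removed, -0.40 without 24 h replicate 1 and -0.18 without 24 h replicate 2. The times did not overlap in 24 of them, 19 lower and 5 higher at 24 h, against 31.5% of all genes lower and 31.3% higher. DESeq2 called 1 of the 14 receptor genes to which it gave an adjusted p, EGFR, named after its values were seen, against 2.65% of all genes called lower, and edgeR called 0. Which receptor genes were called turned on the library left out. The DESeq2 value of EGFR ran from -0.93 without 6 h replicate 2 to -0.29 without 6 h replicate 1. The plot of receptor levels shows that these differences were small beside the range of levels among the receptors.

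HGF (ENSG00000019991, hg19 chromosome 7, 81328322 to 81399754) had 0 counts in all 4 libraries. A count of 0 allows up to 3 counts, or 0.119 and 0.120 CPM at 24 h and 0.122 and 0.111 CPM at 6 h. No fold change was computed. The same libraries held 21378 and 17926 counts of its receptor MET at 24 h and 26280 and 24199 at 6 h, so the receptor was read and the ligand was not.

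Other genes of the HGF and MET system, a list of 12 with the ligand-processing proteases, their inhibitors, the related ligand MST1 and proteins that bind MET, showed no common shift. Of 7 that passed the filter, 4 had a negative and 3 a positive fold change, with a median of -0.093 on the log2 scale, and 2 were without overlap lower and 3 higher at 24 h (31.5% and 31.3% of all genes). Neither tool called any of them, with an adjusted p by DESeq2 for 2 of the 7. Leaving out 24 h replicate 2 brought that median to 0.046, and leaving out 6 h replicate 1 to 0.018. CBL, a ubiquitin ligase that marks MET for degradation, was at 64.5 and 64.9 CPM at 24 h and 87.5 and 70.5 CPM at 6 h (log2 fold change -0.29 ± 0.12). SPINT2, an inhibitor of the proteases that activate HGF, was at 1.66 and 1.85 CPM against 0.816 and 1.60 CPM (0.53 ± 0.35). MST1, the ligand of the MET-related receptor MST1R, was at 2.14 and 3.33 CPM against 1.75 and 2.08 CPM (0.51 ± 0.28). GAB1, a docking protein of MET, was at 12.2 and 9.08 CPM against 13.4 and 10.9 CPM (-0.19 ± 0.18), and overlapped between the times. Of the proteases, HGFAC had no count and HPN had 1 and 0 at 24 h, against 2 and 0 at 6 h. ST14, another protease of the list, was read in every library, at 5.23 and 4.90 CPM at 24 h and 5.46 and 5.34 CPM at 6 h. HGFAC, HPN and ST14 were singled out after their values were seen.

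AXL was the most abundant TAM receptor and was nearly level between the times. AXL (ENSG00000167601, hg19 chromosome 19, 41725108 to 41767671) was at 102 and 92.2 CPM at 24 h and at 112 and 93.9 CPM at 6 h. The ranges overlapped, and the means of 96.9 ± 6.68 CPM and 103 ± 12.5 CPM (n = 2, SD) gave a log2 fold change of -0.083 ± 0.12 and an interval of -0.35 to 0.19. Neither edgeR (adjusted p = 0.661) nor DESeq2 (adjusted p = 0.687) called it. Its sign turned without 6 h replicate 1 (0.045) and with the trend on length and GC removed (0.077). Of the summed per-length level of all receptor tyrosine kinases, AXL took 5.95% and 6.15% at 24 h and 5.45% and 5.20% at 6 h. These shares did not overlap between the times, whereas its CPM did. That sum holds MET and other receptors with lower values at 24 h, so the larger share is not a higher level of AXL.

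TYRO3 (ENSG00000092445, hg19 chromosome 15, 41849873 to 41871536) was at 23.8 and 20.3 CPM at 24 h and 26.4 and 24.0 CPM at 6 h. The times did not overlap, but 24 h replicate 1 and 6 h replicate 2 almost met. Its log2 fold change was -0.19 ± 0.13 (95% interval -0.49 to 0.10), and ran from -0.32 without 24 h replicate 1 to -0.080 without 24 h replicate 2. It was not called (adjusted p = 0.355 by edgeR, 0.439 by DESeq2), and the sign turned with the trend on length and GC removed (0.027). MERTK, the TAM receptor best known from phagocytes (ENSG00000153208, hg19 chromosome 2, 112656056 to 112787138), was at 14.9 and 16.8 CPM at 24 h and 15.2 and 17.2 CPM at 6 h. The ranges overlapped, with replicate 2 above replicate 1 at both times. MERTK had a log2 fold change of -0.029 ± 0.13 and an interval of -0.34 to 0.28. It was not called by edgeR (adjusted p = 0.902), had no adjusted p by DESeq2, and had a sign that turned without 24 h replicate 1 (0.048) and without 6 h replicate 2 (0.062).

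GAS6, the vitamin K-dependent ligand of the TAM receptors (ENSG00000183087, hg19 chromosome 13, 114523522 to 114567046), had the fold change nearest 0 of the set in the main fit. It was at 24.5 and 23.8 CPM at 24 h and at 24.7 and 23.3 CPM at 6 h. The 24 h values lay inside the 6 h range, and the log2 fold change was 0.012 ± 0.11 (95% interval -0.24 to 0.26). Neither edgeR (adjusted p = 0.953) nor DESeq2 (adjusted p = 0.987) called it. The sign turned without 24 h replicate 1 (-0.019) and without 6 h replicate 2 (-0.033). With the trend on length and GC removed the value was 0.097, farther from 0 than AXL, TYRO3, MERTK, IRS1 or IRS2 in that fit.

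Both a TAM ligand and its receptors were thus read in the same libraries, unlike HGF and MET. Per length, AXL was 2.20 and 2.06 times GAS6 at 24 h and 2.40 and 2.15 times GAS6 at 6 h. AXL was 7.27 and 7.74 times TYRO3 at 24 h and 7.19 and 6.67 times at 6 h, and 5.53 and 4.44 times MERTK at 24 h and 5.96 and 4.43 times at 6 h. AXL therefore led the other TAM receptors by several times in all 4 libraries. PROS1, the other TAM ligand, singled out after its values were seen, was at 78.2 and 81.3 CPM at 24 h and 70.3 and 76.6 CPM at 6 h (log2 fold change 0.12 ± 0.098). Per length it was 2.37 and 2.54 times GAS6 at 24 h and 2.12 and 2.45 times at 6 h.

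Of the 9 other genes of the TAM system, all of which passed the filter, 6 had a negative and 3 a positive fold change, with a median of -0.15 on the log2 scale. The times did not overlap in 7 of them, 5 lower and 2 higher at 24 h, against 31.5% of all genes lower and 31.3% higher. LGALS3, a galectin that can act as a ligand of MERTK, was at 41.4 and 44.02 CPM at 24 h and 33.6 and 33.4 CPM at 6 h (log2 fold change 0.35 ± 0.10, adjusted p = 0.173 with edgeR, 0.106 with DESeq2). GGCX, the carboxylase that makes GAS6 and protein S active, was at 58.9 and 51.2 CPM against 72.7 and 60.3 CPM (-0.27 ± 0.13). SOCS3, which TAM signals induce in mouse dendritic cells, was at 107 and 95.2 CPM against 130 and 117 CPM (-0.29 ± 0.11), and ADAM10, a protease that sheds AXL, at 251 and 219 CPM against 297 and 256 CPM (-0.23 ± 0.12). These 4 genes were not called by either tool.

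**Figure D3:**
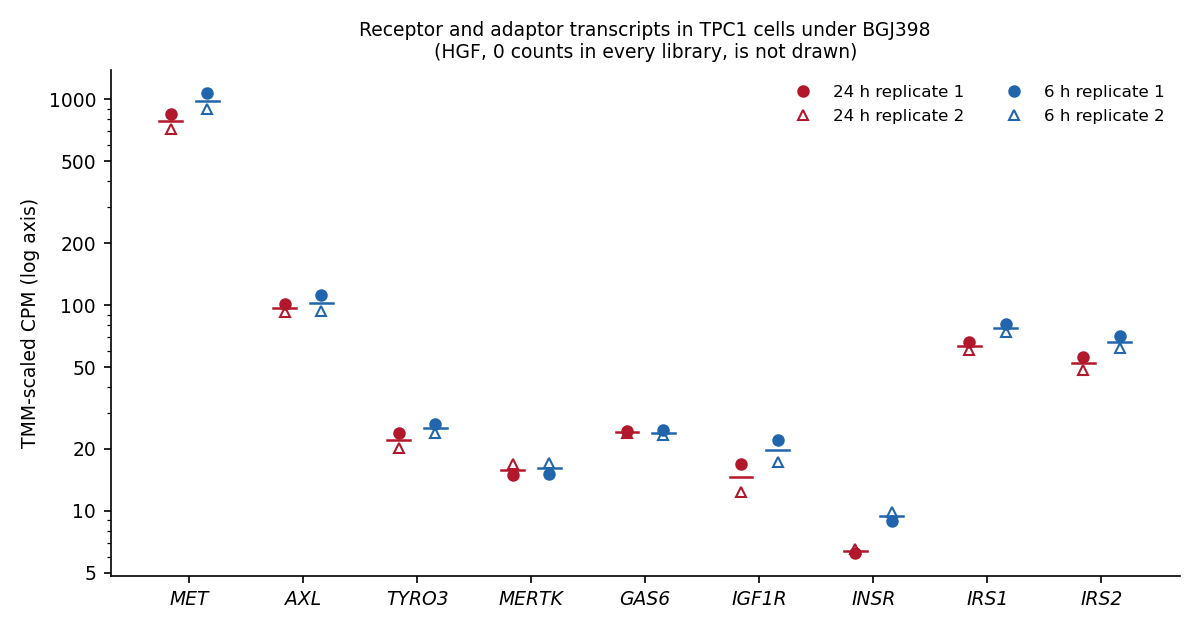
CPM, on a log axis, of the 9 genes with reads in the 24 h libraries (red) and the 6 h libraries (blue), 1 point per library, with a line at the mean of each time. MET, TYRO3, IGF1R, INSR, IRS1 and IRS2 have both 24 h points below both 6 h points, while AXL, GAS6 and MERTK overlap.

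INSR had the largest difference of the set over all 4 libraries, though IGF1R passed it without 24 h replicate 1 (-0.68 for IGF1R, -0.55 for INSR) and without 6 h replicate 2 (-0.60 and -0.49). The insulin receptor gene INSR (ENSG00000171105, hg19 chromosome 19, 7112266 to 7294045) was at 6.26 and 6.51 CPM at 24 h and at 8.97 and 9.91 CPM at 6 h. The times were well apart, with close replicates at both: means of 6.38 ± 0.173 CPM at 24 h and 9.44 ± 0.663 CPM at 6 h (n = 2, SD). INSR counts were low, 158 and 162 at 24 h and 220 and 267 at 6 h, and the counting intervals were 5.32 to 7.32 and 5.54 to 7.59 CPM at 24 h and 7.82 to 10.2 and 8.75 to 11.2 CPM at 6 h (95% Poisson), which do not meet. The log2 fold change was -0.56 ± 0.15 (95% interval -0.91 to -0.22), or 0.676 of the 6 h level. Its adjusted p was 0.173 by edgeR, the lowest value in the table, shared with other genes, and DESeq2 gave it none. Leaving out each library in turn the value ran from -0.64 to -0.49, and with the trend on length and GC removed it was -0.36. At the cutoffs of the study, taken in both directions (a log2 fold change past 0.5 and an unadjusted p under 0.01), INSR was the 1 gene of the 10 that passed with edgeR, where 0.693% of all genes passed as lower, and 0 passed with DESeq2.

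IGF1R (ENSG00000140443, hg19 chromosome 15, 99192200 to 99507759) was at 17.0 and 12.3 CPM at 24 h and at 22.1 and 17.2 CPM at 6 h. The times were barely apart, since 24 h replicate 1 and 6 h replicate 2 nearly met, and replicate 2 was the lower at both times. With means of 14.6 ± 3.28 CPM and 19.7 ± 3.45 CPM (n = 2, SD) the log2 fold change was -0.42 ± 0.19 (95% interval -0.86 to 0.012). It was not called by edgeR (adjusted p = 0.212) and had no adjusted p by DESeq2. Its value was the most dependent on single libraries, from -0.68 without 24 h replicate 1 to -0.21 without 24 h replicate 2, and it was -0.20 with the trend on length and GC removed. Per length, IGF1R was 2.10 and 1.47 times INSR at 24 h and 1.91 and 1.34 times at 6 h, so it was the higher in each library. MET stood far above both: per length it was 89.6 and 105 times IGF1R at 24 h and 87.0 and 93.5 times at 6 h.

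IRS1 and IRS2, the docking proteins that both receptors phosphorylate, were also at lower values at 24 h. IRS1 (ENSG00000169047, hg19 chromosome 2, 227596033 to 227664475) was at 66.1 and 60.4 CPM at 24 h and 81.3 and 73.7 CPM at 6 h. IRS2 (ENSG00000185950, hg19 chromosome 13, 110406184 to 110438915) was at 56.0 and 48.3 CPM at 24 h and 70.8 and 61.6 CPM at 6 h. In both genes the times did not overlap and replicate 2 was below replicate 1 at each time. IRS1 averaged 63.2 ± 4.0 CPM at 24 h and 77.5 ± 5.41 CPM at 6 h (n = 2, SD), a log2 fold change of -0.29 ± 0.10 and an interval of -0.53 to -0.051. IRS2 averaged 52.2 ± 5.49 CPM at 24 h and 66.2 ± 6.52 CPM at 6 h, a log2 fold change of -0.34 ± 0.12 and an interval of -0.62 to -0.066. Neither was called: the adjusted p was 0.175 and 0.174 by edgeR and 0.137 and 0.108 by DESeq2, for IRS1 and IRS2 in that order. With the trend on length and GC removed the values were -0.082 for IRS1 and -0.069 for IRS2. Per length they were level with each other, with an IRS1 to IRS2 ratio of 0.984 and 1.04 at 24 h and 0.959 and 0.999 at 6 h.

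On the per-length scale the 10 genes ran in the order MET, AXL, GAS6, IRS2, IRS1, MERTK, TYRO3, IGF1R, INSR and HGF. In CPM, TYRO3 was above MERTK, and IRS1 and IRS2 were above GAS6, in every library. These parts of the order rest on the canonical transcript lengths, while the annotation behind the counts is not given. Over the 4 libraries MET was at 106 to 157 CPM per kilobase, AXL at 19.6 to 23.6 and GAS6 at 9.28 to 9.84. IRS2 (5.92 to 8.68) and IRS1 (6.18 to 8.32) could not be ordered, since their ranges overlap. MERTK was at 3.90 to 4.49, TYRO3 at 2.53 to 3.29, IGF1R at 1.01 to 1.81 and INSR at 0.662 to 1.05 CPM per kilobase, so only the ranges of IGF1R and INSR met among these. The docking proteins thus stood above both of their receptors in all 4 libraries, and the receptor MET above its docking protein GAB1. No other gene in the table overlaps the span of any of the 10, though transcripts that are not in the table were not checked.

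Replicates of a time differed in the same way at both times. The log2 ratio of replicate 2 to replicate 1 for MET was -0.23 at 24 h and -0.26 at 6 h. For IGF1R it was -0.46 at 24 h and -0.36 at 6 h, for IRS2 -0.22 and -0.20, and for IRS1 -0.13 and -0.14. MERTK went the other way, with 0.18 at both times, and INSR had 0.055 and 0.14. For MET and IGF1R these differences between replicates were about as large as the differences between the times. For INSR the difference between the times was several times larger. Across all genes tested, the difference of replicate 2 from replicate 1 had a correlation of 0.67 with that of 24 h from 6 h.

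Genes of the IGF ligands, their binding proteins and the proteases that release them mostly had lower values at 24 h. Of 17, 12 passed the filter, 11 with a negative and 1 with a positive fold change, and the median was -0.28 on the log2 scale, or -0.22 with the trend on length and GC removed and -0.41 to -0.15 without each library. The times did not overlap in 9 of the 12, all lower (31.5% of all genes), and DESeq2 called 3 of the 9 to which it gave an adjusted p, all lower (2.65% of all genes), while edgeR called 0. IGF2R, which takes up and clears IGF2 (hg19 chromosome 6, 160390131 to 160534539), was at 192 and 159 CPM at 24 h and 342 and 221 CPM at 6 h (log2 fold change -0.68 ± 0.20, DESeq2 adjusted p = 0.0168). IGFBP5, an IGF-binding protein held in the matrix, was at 41.9 and 27.8 CPM against 58.4 and 50.8 CPM (-0.65 ± 0.18, DESeq2 adjusted p = 0.0223). PAPPA2, a protease that cuts IGF-binding proteins, was at 59.97 and 52.9 CPM against 81.1 and 71.6 CPM (-0.44 ± 0.11, DESeq2 adjusted p = 0.0381). These 3 genes fell by DESeq2, and its calls turned on single libraries: without 24 h replicate 2 or without 6 h replicate 1 it called 0 of the list, without 6 h replicate 2 it called IGF2R (3.27% of all genes called lower) and gave the other 2 no adjusted p, and without 24 h replicate 1 it called 3, with IGF2R not among them (adjusted p = 0.266, log2 fold change -0.84). Without 6 h replicate 1 the DESeq2 value of IGF2R was -0.34, and without 24 h replicate 2 that of IGFBP5 was -0.39. PAPPA, the other protease of this kind, was at 5.51 and 4.46 CPM against 8.20 and 6.68 CPM (-0.57 ± 0.19) and had no adjusted p by DESeq2.

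Ligands of INSR and IGF1R were low or had no read, by values singled out after they were seen. IGF1 had 0 and 1 reads at 24 h, with no read at 6 h, and INS had none at either time. IGF2 was at 5.59 and 4.42 CPM at 24 h and 7.75 and 6.72 CPM at 6 h (log2 fold change -0.53 ± 0.19, not called). Among the binding proteins IGFBP3 was at 309 and 274 CPM at 24 h and 348 and 316 CPM at 6 h.

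Of 24 adaptors, phosphatases and PI3K subunits that carry the signal on from these receptors, 22 passed the filter. Their fold change was negative in 20 and positive in 2, with a median of -0.19 on the log2 scale, or -0.096 with the trend on length and GC removed and -0.11 without 6 h replicate 1, and the times did not overlap in 16, all lower, against 31.5% of all genes. Neither tool called any of them. PIK3R1, the regulatory subunit of PI3K that binds IRS proteins, was at 47.9 and 48.2 CPM at 24 h and 73.8 and 54.7 CPM at 6 h (-0.42 ± 0.14, DESeq2 adjusted p = 0.0768). PTPN1, a phosphatase that acts on INSR, was at 87.2 and 73.9 CPM against 99.2 and 101 CPM (-0.32 ± 0.11). PTPN11, the phosphatase SHP2, was at 221 and 192 CPM against 272 and 243 CPM (-0.32 ± 0.12), and PIK3CD, a catalytic subunit of PI3K, at 82.6 and 71.8 CPM against 101 and 89.5 CPM (-0.30 ± 0.11).

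FOXO factors and their known targets numbered 12, of which 9 passed the filter, 7 with a negative and 2 with a positive fold change and a median of -0.21 on the log2 scale. The median was -0.28 with the trend on length and GC removed and -0.45 without 24 h replicate 1. The times did not overlap in 7 of them, 5 lower and 2 higher, against 31.5% of all genes lower and 31.3% higher. BCL6, a repressor and FOXO target, fell by DESeq2, with 55.8 and 50.8 CPM at 24 h and 85.2 and 66.7 CPM at 6 h (-0.51 ± 0.13, DESeq2 adjusted p = 0.0270). It was the 1 call in the list, against 2.65% of all genes called lower. DESeq2 called it also without 24 h replicate 1 (-0.60, adjusted p = 0.0224). Leaving out 24 h replicate 2 lost the call (-0.45, DESeq2 adjusted p = 0.99995), as did leaving out 6 h replicate 1 (-0.33, DESeq2 adjusted p = 0.999). In the DESeq2 fit without 6 h replicate 2 it had no adjusted p. FOXO4 was at 7.21 and 5.46 CPM against 10.0 and 8.83 CPM (-0.57 ± 0.18), FOXO3 at 30.8 and 25.1 CPM against 45.3 and 33.0 CPM (-0.49 ± 0.17), and FOXO1 at 41.5 and 33.1 CPM against 53.9 and 43.8 CPM (-0.39 ± 0.15). These 3 factor genes were without overlap between the times and were called by neither tool, and DESeq2 gave no adjusted p for FOXO4.

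**Figure D4:**
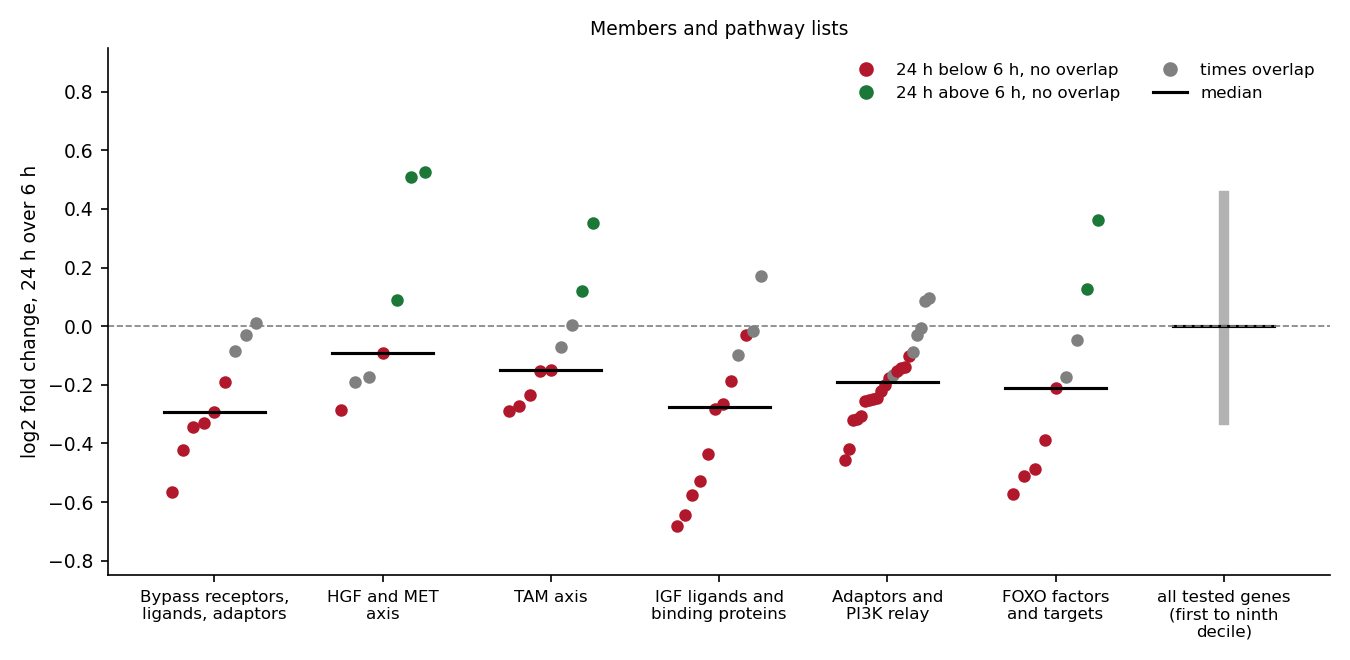
Log2 fold change, 24 h over 6 h, of each tested gene of the 10 genes described and of the pathway lists, 1 point per gene, coloured by whether the 24 h libraries lay below or above the 6 h libraries or overlapped with them. Black lines are medians, which run from -0.093 for the HGF and MET system to -0.29 for the 9 genes tested, and the grey bar spans the first to the ninth decile of all genes tested.

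The plot of list values shows the genes described here on the same scale as the systems around them, with medians of -0.29 for the 9 tested, -0.28 for IGF ligands and binding proteins and -0.27 for receptor tyrosine kinases, the last of which is not drawn. With the trend on length and GC removed these medians were -0.069, -0.22 and -0.13, so they were no longer alike. MET, AXL, TYRO3, MERTK, IGF1R and INSR are among the 9 and also in the receptor list, so those medians share genes. These lists were set side by side and not tested against each other.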

How the data were processed

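RNA-seq was measured in 4 libraries of TPC1 cells, 2 per time. Read counts per gene, whole numbers with no normalization, were deposited for 20372 genes with hg19 coordinates. The submitters' processing notes name STAR 2.3, hg19 and DESeq2, the methods of the study name a later STAR, and the labels and methods differ on single-end or paired-end reads. For the counter, annotation and strand setting the entry is: not given in the sources used here. Counts were scaled by TMM, filtered with filterByExpr (12549 genes left) and tested in edgeR 4.0.16 (R 4.3.3) by quasi-likelihood, with Benjamini-Hochberg adjustment over all genes and a threshold of 0.05. A log2 fold change is 24 h over 6 h, with its standard error (SE). An exact permutation test of 2 against 2 libraries cannot go below 0.333 (two-sided) and was not used.

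DESeq2 1.42.0 on all genes was the alternative tool (7410 genes with an adjusted p). Other alternatives were DESeq2 size factors, no filter, a mean of at least 10 CPM, leaving out each library, a replicate block, leaving out mitochondrial and ribosomal protein genes, a length and GC trend removed through offsets (mgcv 1.9.3) and the cutoffs of the study. DESeq2 without each library was chosen after seeing the data. Transcript lengths and GC were those of the canonical GENCODE v44 transcript, matched by Ensembl identifier for 19460 genes. Promoter windows came from RefSeq on GRCh38.p14, found for all 10 genes. The steps were tested on simulated data.

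Libraries held 24958447 to 26325512 counts. For MET the spread between 2 libraries a time limits the precision more than depth does. For INSR, GAS6, TYRO3 and MERTK the counting intervals were wider than the gap between replicates at both times, so depth limits their precision too. Counting intervals are 95% exact Poisson intervals, the limit for a count of 0 is 3 counts, and both cover counting error only. The genes and lists were chosen with earlier results of these data known. Named were the 10 genes, up to 4 members of each of 5 pathway lists (called by edgeR, then by DESeq2, then by the smallest p) and the 10 receptor tyrosine kinases highest per length. Some marker genes are not reported here.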

Additional observations from a re-analysis of the deposited data

How the results depend on the processing

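The count of 0 genes by edgeR held under size factors of DESeq2, no filter, a mean of at least 10 CPM, removal of mitochondrial and ribosomal protein genes, and removal of the length and GC trend. INSR gave no value at a mean of at least 10 CPM and HGF gave none in any fit. DESeq2 called 610 genes (414 higher, 196 lower), and the cutoffs of the study gave 355 genes with edgeR and 462 with DESeq2, with 1 and 0 of the 10 genes. Without each library, edgeR called 1 to 3126 genes and 0 to 4 of the 10 genes, and DESeq2 0 to 1471 genes (133 without 6 h replicate 2, 1 without 24 h replicate 2) and 0 to 1 of the 10, a lone library being taken to vary like the pair left. The log2 fold changes then ran from -0.46 to -0.20 for MET, -0.20 to 0.045 for AXL, -0.033 to 0.053 for GAS6, -0.32 to -0.080 for TYRO3, -0.12 to 0.062 for MERTK, -0.68 to -0.21 for IGF1R, -0.64 to -0.49 for INSR, -0.37 to -0.22 for IRS1 and -0.46 to -0.24 for IRS2. The median of the 9 tested genes ran from -0.37 to -0.20.

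Removal of the length and GC trend gave a median of -0.069, with AXL at 0.077 and TYRO3 at 0.027. Fitted with a replicate block, edgeR called 4565 genes (2202 or 17.5% lower, 2363 or 18.8% higher), 5 of the 10 among them, MET (-0.33), IGF1R (-0.43), INSR (-0.56), IRS1 (-0.29) and IRS2 (-0.34). With block and trend removal together it called 3069 of the 12392 tested genes with a transcript length, 1807 lower and 1262 higher. Of the 10 it called 2, both lower, MET (-0.27) and INSR (-0.36). In that fit AXL was at 0.078, TYRO3 at 0.026 and the median at -0.069. Same-numbered libraries deviated together with a correlation of 0.43 across genes, and replicate differences ran with time differences with a correlation of 0.67. But no label or method ties a number to a culture or day, so the pairing is not part of the design. The cause of these differences was not tested.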
